A study of Mus musculus with 24 samples.

Results

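The fibroblast growth factor (FGF) genes described here are 33 of the 27080 genes counted in each library. They were taken by symbol: 22 ligands (Fgf1 to Fgf18 and Fgf20 to Fgf23), 5 receptors (Fgfr1 to Fgfr4 and Fgfrl1) and 6 inhibitors (Spry1, Spry2, Spry4 and Spred1 to Spred3). Spry3, which the same rule would take, was not analysed here. The rule used symbols and no measured value, although earlier results of these data were known when it was chosen.

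FGF ligands bind receptor tyrosine kinases at the cell surface, with heparan sulfate as a co-factor, and drive the Ras, Raf and ERK kinases. Sprouty and Spred proteins are induced or engaged by this signalling and dampen it. In the mammary gland, Fgf10 and Fgf7 from the stroma signal to the epithelial form of Fgfr2, and loss of Fgf10 or Fgfr2 prevents most mammary buds from forming in mouse embryos.

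Basal cells, the outer epithelial layer of the mammary gland, were sorted from untreated C57BL/6 females by Lgr5, an R-spondin receptor, and Tspan8, a membrane tetraspanin. The 4 sorted subpopulations were Lgr5+Tspan8hi, Lgr5+Tspan8-, Lgr5-Tspan8hi and Lgr5-Tspan8-, and all of them carried the same genetic background. For each subpopulation, 2 libraries were made by chromatin immunoprecipitation of H3K4me3, which marks active and poised promoters, and 2 of H3K27me3, the mark of Polycomb repression. Nothing in the labels says that replicate libraries came from separate animals or how many were pooled, and p-values therefore reflect the spread of these libraries alone, which may be technical. Sorted fractions are populations of cells, so a mark in fewer cells and less of it per cell cannot be told apart.

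Library totals ran from 1472251 to 4740371 counts for H3K4me3 and from 2639862 to 6972189 for H3K27me3. Replicate 1 of Lgr5-Tspan8hi stood apart in both marks, with 21.6% of genes at 0 in H3K4me3 and 15.5% in H3K27me3, against at most 11.1% and 5.75% in every other library. For H3K27me3 it was also the smallest library, with 2639862 counts against 4338218 or more elsewhere. For H3K4me3 it had 2241266 counts, and the smallest library, with 1472251, had 7.0% of genes at 0. The part of depth was not tested. Among 12 basal marker genes, 10 lay in the top tercile of all genes for H3K4me3, against 4 of 12 luminal, 2 of 12 fibroblast, 1 of 8 adipocyte, 0 of 8 endothelial and 0 of 8 immune markers, and no marker was at 0 in every library. The basal markers outside the top tercile were Trp63 at percentile 21.5 and Mylk at percentile 37.3. H3K4me3 at Tspan8 itself was 69.4, 84.4, 90.2 and 78.8 CPM (a gene's reads scaled to the normalized library size) in the Tspan8hi libraries, against 31.0, 23.3, 25.1 and 21.3 CPM in the Tspan8- libraries. H3K4me3 at Lgr5 averaged 88.0 ± 17.7 CPM over Lgr5+ and 70.0 ± 12.5 CPM over Lgr5- libraries (SD, n = 4 each), and those groups overlapped.

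The scale of each mark follows from what was counted. Genes whose starts lay under 1 kb apart had H3K4me3 values within 10% of each other in 83.5% of 1642 pairs, against 16.4% of 611 pairs 2 to 5 kb apart. H3K4me3 is therefore given in CPM per gene as a level around the gene start. A gene with several starts may carry H3K4me3 at a start outside this level, so a low level need not mean that the mark is absent. H3K27me3 grew with the length of the gene (Spearman's rho 0.80 over 25185 genes, against 0.35 for H3K4me3) and is compared between genes as CPM per kb, called density here. A gene is called high in a mark when its mean over the 8 libraries lies in the top tercile of all genes with a length.

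Of the 33 FGF genes, 25 had a promoter of 300 bases (250 before to 50 after the start) in the RefSeq table of GRCm38.p6. Some had several such windows, with 4 each for Fgf12 and Fgf13 and 2 for Fgfr3. The first one listed was used for every gene and was not matched to the gene start. Promoters of Fgf1, Fgf8, Fgf15, Fgf16, Fgf17, Fgf20, Fgfr1 and Spry4 were not used here. The promoters below belong to the inhibitor with the most H3K4me3, the ligand with the densest H3K27me3, the ligand high in both marks and the ligand with the least H3K4me3. They set sequence beside marks at these genes alone. CG pairs, the dinucleotide that CpG islands are rich in, are in capitals. The windows are chr14:105896770-105897069 on the minus strand for Spry2, and on the plus strand chr7:144861136-144861435 for Fgf4, chr14:58072436-58072735 for Fgf9 and chr6:127015292-127015591 for Fgf6. The Fgf9 window lies inside the gene, downstream of the gene start at chr14:58070671, and does not surround that start. Its CG pairs therefore need not describe the sequence where H3K4me3 of Fgf9 was counted.
Spry2: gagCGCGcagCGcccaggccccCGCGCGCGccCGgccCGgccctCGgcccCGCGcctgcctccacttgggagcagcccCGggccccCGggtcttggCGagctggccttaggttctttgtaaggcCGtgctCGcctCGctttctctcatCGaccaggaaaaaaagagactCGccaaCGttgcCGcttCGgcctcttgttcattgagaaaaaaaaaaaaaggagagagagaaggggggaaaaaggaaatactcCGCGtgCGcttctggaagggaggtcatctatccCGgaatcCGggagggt
Fgf4: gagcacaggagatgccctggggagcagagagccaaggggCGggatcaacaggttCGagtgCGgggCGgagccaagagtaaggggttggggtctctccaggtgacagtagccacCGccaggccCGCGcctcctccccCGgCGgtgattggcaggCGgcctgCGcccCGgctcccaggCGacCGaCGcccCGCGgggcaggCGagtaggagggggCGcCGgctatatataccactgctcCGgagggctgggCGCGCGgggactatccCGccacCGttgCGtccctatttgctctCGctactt
Fgf9: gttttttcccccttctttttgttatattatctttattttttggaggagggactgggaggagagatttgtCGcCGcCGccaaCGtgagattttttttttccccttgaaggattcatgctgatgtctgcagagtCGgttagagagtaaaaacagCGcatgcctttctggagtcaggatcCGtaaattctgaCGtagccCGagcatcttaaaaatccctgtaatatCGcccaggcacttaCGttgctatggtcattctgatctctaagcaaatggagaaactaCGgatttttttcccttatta
Fgf6: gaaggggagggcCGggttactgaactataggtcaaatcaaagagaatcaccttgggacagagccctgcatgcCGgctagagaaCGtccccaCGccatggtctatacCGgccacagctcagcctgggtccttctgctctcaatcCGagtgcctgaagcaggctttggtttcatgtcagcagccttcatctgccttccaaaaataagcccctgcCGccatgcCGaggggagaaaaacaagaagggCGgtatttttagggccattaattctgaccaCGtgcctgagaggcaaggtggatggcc

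Spry2 and Fgf4 held the same number of CG pairs, 28 each, while Fgf9 held 12 and Fgf6 held 10. The motif searched was CG, which reads the same on both strands and cannot overlap itself. Of all 32851 windows in the table, 94.6% held at least 1 CG, 43.5% at least 10 and 14.2% at least 28. The median number was 12 in 16 ligands, 23 in 4 receptors and 28 in 5 inhibitors, against 13 over 18458 genes. Counts within a role were wide: Fgf18 held 47, and Fgf13 held 3 in the first of its 4 windows. Fgfr2, a receptor high in H3K4me3, held 4 in its window. As for every gene, that window was not matched to the gene start and need not describe the sequence where H3K4me3 was counted. Across the 25 FGF genes, Spearman's rho between CG number and H3K4me3 level was 0.33, against 0.75 across all 18458 genes; the points of each share the same 8 libraries.

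The roles differed in their marks. Median H3K4me3 was 16.3 CPM in ligands (range 1.38 to 98.9), 120 CPM in receptors (30.5 to 128) and 129 CPM in inhibitors (80.5 to 226), against 28 CPM over all genes. Median H3K27me3 density ran the other way, with 2.66 CPM per kb in ligands (0.25 to 10.6), 0.36 in receptors (0.26 to 0.85) and 0.25 in inhibitors (0.18 to 0.92), against 0.60 over all genes. High H3K27me3 without high H3K4me3 was found in 15 of 22 ligands, 0 of 5 receptors and 0 of 6 inhibitors, against 31.4% of all genes. High H3K4me3 without high H3K27me3 was found in 3 of 22 ligands, 4 of 5 receptors and 6 of 6 inhibitors, against 31.4% of all genes. These counts describe a chosen list and carry no test.

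**Figure D1:**
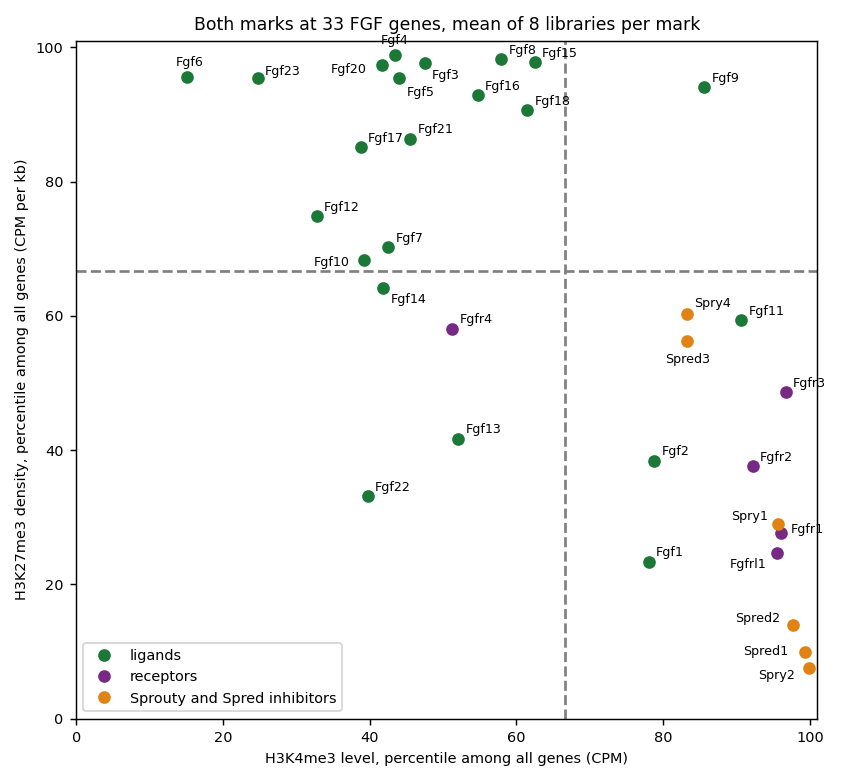
Percentile of each FGF gene among all genes for H3K4me3 level (x axis, CPM) and H3K27me3 density (y axis, CPM per kb), from the mean of 8 libraries per mark; colours give the role and dashed lines the top tercile. 15 ligands sit at the upper left, 6 inhibitors and 4 receptors at the lower right, and Fgf9 is the 1 FGF gene at the upper right.

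Among the ligands that signal to neighbouring cells, Fgf4 had the densest H3K27me3. Fgf4, an early embryonic growth factor, carried 35.6 and 37.9 CPM for Lgr5+Tspan8hi, 40.7 and 39.5 for Lgr5+Tspan8-, 32.4 and 44.0 for Lgr5-Tspan8hi, and 41.6 and 57.1 for Lgr5-Tspan8- libraries, a mean density of 10.6 CPM per kb at percentile 98.9. The pair of Lgr5-Tspan8hi libraries spanned both Lgr5+ subpopulations, and the second Lgr5-Tspan8- library was the highest. Fgf8, a patterning signal of limb and brain, followed at 8.22 CPM per kb and Fgf3, which mouse mammary tumour virus can activate by insertion, at 7.14. Fgf20 stood at 6.29, Fgf6 at 4.49, Fgf5, which ends the growth phase of hair, at 4.37, and the X-linked Fgf16 at 3.39 CPM per kb. Fgf18, a ligand of the Fgf8 subfamily, had 2.92 CPM per kb and Fgf17, of the same subfamily, 2.26. The first 7 genes had H3K4me3 between 1.38 CPM (Fgf6) and 42.2 CPM (Fgf8).

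Fgf9, a ligand of the same subfamily as Fgf16 and Fgf20, was the 1 FGF gene high in both marks, a class that held 1.94% of all genes; with both cutoffs at the median it held 9 FGF genes and 10.7% of all genes. Its H3K4me3 was 70.2 and 74.1 CPM for Lgr5+Tspan8hi, 79.1 and 95.2 for Lgr5+Tspan8-, 96.6 and 98.9 for Lgr5-Tspan8hi, and 80.5 and 89.3 for Lgr5-Tspan8- libraries. Its H3K27me3 density was 3.73 CPM per kb, with single libraries between 3.19 and 4.38. No library of Fgf9 was below 70.2 CPM in H3K4me3 or below 3.19 CPM per kb in H3K27me3. Whether the marks sat on the same nucleosomes or in different cells cannot be told apart from these counts.

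The stromal ligands Fgf10 and Fgf7 lay just inside the top tercile for H3K27me3, at percentiles 68.3 and 70.3, and Fgf14 just outside it at 64.1. Fgf10 had a density of 1.21 CPM per kb and 7.45 CPM of H3K4me3, and Fgf7 had 1.30 CPM per kb and 12.1 CPM. Fgf2 and Fgf1, ligands that lack a classical secretion signal, were instead high in H3K4me3 at 71.4 and 70.2 CPM and low in H3K27me3 density at 0.37 and 0.25 CPM per kb. Fgf2 had 64.2 and 84.4 CPM of H3K4me3 for Lgr5+Tspan8hi, 72.2 and 78.1 for Lgr5+Tspan8-, 49.2 and 76.8 for Lgr5-Tspan8hi, and 65.9 and 80.0 for Lgr5-Tspan8- libraries. The subpopulations of Fgf2 overlapped throughout. Fgf2 overlaps Nudt6 and Fgf2os, Fgf7 overlaps Fam227b and Fgf1 overlaps Arhgap26, so the H3K27me3 reads of these pairs cannot be told apart, and neither can the H3K4me3 reads at the shared start of Fgf2 and Fgf2os.

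The remaining ligands are taken by type. Fgf11 to Fgf14 encode intracellular factors that modulate voltage-gated sodium channels and do not signal as secreted ligands. Fgf11 was high in H3K4me3 at 98.9 CPM, the highest of the ligands, although its start lies within 2 kb of that of G630025P09Rik. Fgf12, Fgf13 and Fgf14 are long genes of 595, 523 and 703 kb; their H3K27me3 summed to 904, 216 and 735 CPM and spread to densities of 1.52, 0.41 and 1.05 CPM per kb, of which that of Fgf12 was high. Fgf14 overlaps Itgbl1. The hormone-like ligands Fgf15, Fgf21 and Fgf23, which act with Klotho co-receptors, were all high in H3K27me3, at 7.21, 2.39 and 4.36 CPM per kb, with H3K4me3 of 48.3, 18.0 and 2.02 CPM. Fgf21 is 1.6 kb long, and its density rested on a mean of 3.83 CPM, with single libraries from 0.94 to 4.94 CPM per kb. With H3K27me3 not divided by length, Fgf21 was high in neither mark. Fgf22 was high in neither mark, and its H3K27me3 rested on 0 to 9 reads per library.

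Of the ligands with high density, 5 stood in 2 gene clusters. On chromosome 7, Fgf3 (chr7:144838612-144843348), Fgf4 (chr7:144861386-144865245) and Fgf15 (chr7:144896532-144900953) lay at percentiles 97.7 to 98.9 for H3K27me3 density. Their neighbours did not share it: Ano1 on one side had 0.41 CPM per kb (percentile 41.4), and LTO1 on the other side had 0.09 CPM per kb (percentile 2.70). Ccnd1, the cyclin D1 gene that overlaps the far end of LTO1, had 122 CPM of H3K4me3 and 1.28 CPM per kb of H3K27me3 (percentile 70.0). On chromosome 6, Fgf6 (chr6:127015542-127024718) and Fgf23 (chr6:127072902-127082296) had 4.49 and 4.36 CPM per kb, while Tigar, which ends 2820 bases beyond Fgf23, had 0.40. Ccnd2, the cyclin D2 gene next to Tigar, had 113 CPM of H3K4me3 and 0.78 CPM per kb of H3K27me3. Both clusters thus lie beside a cyclin D gene with more H3K4me3 and sparser H3K27me3 than the FGF genes. Fgf15 overlaps the predicted gene Gm26793.

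Of the receptors, Fgfr3, Fgfr1, Fgfrl1 and Fgfr2 were high in H3K4me3 at 128, 124, 120 and 104 CPM, percentiles 92.2 to 96.7. Fgfr2, whose epithelial splice form receives Fgf7 and Fgf10, had 114 and 104 CPM for Lgr5+Tspan8hi, 102 and 123 for Lgr5+Tspan8-, 86.1 and 106 for Lgr5-Tspan8hi, and 91.6 and 107 for Lgr5-Tspan8- libraries. Fgfr1, a receptor shared by epithelium and stroma, had 115 and 123, 116 and 114, 167 and 117, and 115 and 126 CPM in the same order of subpopulations. At both receptors the Tspan8hi and Tspan8- libraries overlapped, as did the Lgr5+ and Lgr5- libraries, and the 167 CPM came from the Lgr5-Tspan8hi library that stood apart. Fgfr4 was lower at 30.5 CPM, percentile 51.3, and had the densest H3K27me3 of the receptors at 0.85 CPM per kb. Fgfrl1, a receptor without a kinase domain, had 0.26 CPM per kb. The start of Fgfrl1 lies within 2 kb of that of Gm42151, and Fgfr1 overlaps 2 predicted genes.

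All 6 inhibitors were high in H3K4me3. Spry2 led with 199 and 256 CPM for Lgr5+Tspan8hi, 227 and 196 for Lgr5+Tspan8-, 243 and 244 for Lgr5-Tspan8hi, and 211 and 234 for Lgr5-Tspan8- libraries, and its mean of 226 CPM lay at percentile 99.9 of all genes. Spred1 followed at 168 CPM and Spred2 at 137 CPM, both membrane-anchored inhibitors of Ras signalling. Spry1 had 102 and 129, 123 and 108, 144 and 106, and 127 and 127 CPM in the same order of subpopulations, and Spred3 and Spry4 averaged 80.6 and 80.5 CPM. Both extremes of Spry2, 196 and 256 CPM, were Lgr5+ libraries. At Spry1 the Tspan8hi and Tspan8- libraries overlapped, as did the Lgr5+ and Lgr5- libraries. H3K27me3 was sparse at Spry2, with 0 to 14 reads per library; a count of 0 in both Lgr5-Tspan8hi libraries allows up to 1.13 and 0.462 CPM, counting error only. Spry4 and Spred3 had the densest H3K27me3 of the inhibitors, 0.92 and 0.79 CPM per kb. Spred3 overlaps Ggn and shares its start region, and the start of Spry4 lies near that of Arhgap26.

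**Figure D2:**
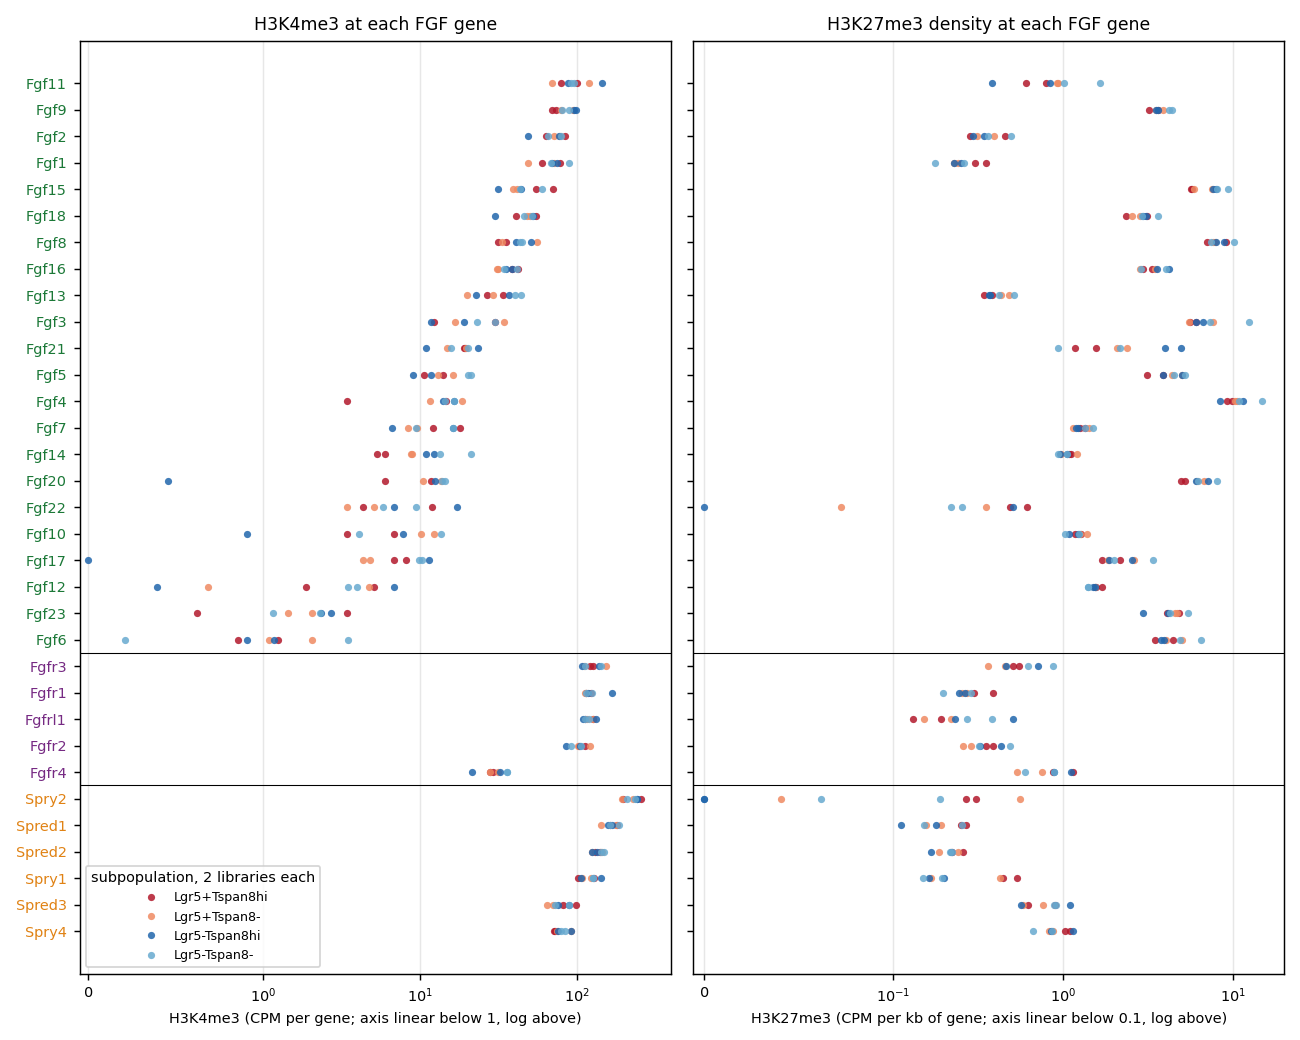
Values of single libraries at each FGF gene: H3K4me3 (left, CPM) and H3K27me3 density (right, CPM per kb), with 2 points per subpopulation; green names are ligands, purple receptors and orange inhibitors. Receptors and inhibitors sit right of most ligands in H3K4me3 and left of most in H3K27me3: Spry2 stays between 196 and 256 CPM of H3K4me3 and Fgf6 between 0.211 and 3.50.

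Levels were also set out for 42 other genes of the pathway. All 18 adaptors and effectors were high in H3K4me3, among them Gab1, a docking protein, at 151 CPM and Sos1, a Ras activator, at 127 CPM. All 8 targets and feedback genes were high too: Dusp6, a phosphatase of ERK, reached 258 CPM, Egr1 195 CPM and Etv5, an ETS factor downstream of FGF, 93.0 CPM. Of 10 co-receptors and ligand-binding proteins, 4 were high in H3K4me3. The Klotho co-receptors had 11.9 CPM at Kl and 0.988 CPM at Klb, with H3K27me3 of 1.96 and 1.77 CPM per kb. Of 6 heparan sulfate enzymes, 3 were high in H3K4me3, and Hs6st2 carried dense H3K27me3 at 3.11 CPM per kb.

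The first comparison asked whether the marks differed with Tspan8, taking the 4 Tspan8hi against the 4 Tspan8- libraries over both Lgr5 states. For H3K4me3, no FGF gene passed an adjusted p of 0.05 in edgeR's quasi-likelihood test: 0 of 31 tested, against 0.0473% of the 19009 genes tested. Fgf6 and Fgf23 had too few H3K4me3 reads to be tested. At an unadjusted p under 0.05 stood 1 of 31 members, against 5.9% of all genes (2.49% higher and 3.41% lower in Tspan8hi cells), and DESeq2 and limma-voom also called 0. Fold changes were above 0 at 12 of 31 and below 0 at 19 of 31 members, against 49.6% and 50.4% of all genes. In no member did the 4 Tspan8hi libraries all lie above or all below the 4 Tspan8- libraries; all genes gave 1.48% above and 1.6% below. The 95% intervals of the 5 receptors lay between -0.69 and 0.38 and those of the 6 inhibitors between -0.35 and 0.49 on the log2 scale.

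Fgf10 had the smallest p. Its H3K4me3 was 3.43 and 6.88 CPM for Lgr5+Tspan8hi and 0.912 and 7.88 for Lgr5-Tspan8hi, against 12.4 and 10.3 CPM for Lgr5+Tspan8- and 4.08 and 13.7 for Lgr5-Tspan8- libraries. The groups overlapped, and the lowest value was that of the library that stood apart, with means of 4.78 ± 3.21 CPM in Tspan8hi and 10.1 ± 4.27 CPM in Tspan8- libraries (SD, n = 4 each). The log2 fold change was -1.09 ± 0.52 (SE), with an adjusted p of 0.807 in edgeR, and leaving out a library moved it between -0.49 (without replicate 2 of Lgr5-Tspan8-) and -2.21 (without replicate 2 of Lgr5-Tspan8hi, adjusted p of 0.0595). Fgf5 and Fgf3 came next at -0.61 and -0.50, both with an adjusted p of 0.862. Levels at the genes named for their role varied less: the log2 fold change was 0.14 at Fgfr1, -0.05 at Fgfr2, -0.11 at Fgf2, -0.02 at Spry1 and 0.11 at Spry2, with adjusted p of 0.934 or more. Without replicate 2 of Lgr5-Tspan8hi, Fgf20 passed in edgeR (adjusted p of 0.0173; 0.505% of all genes passed in that fit), resting on the remaining Lgr5-Tspan8hi library, the one that stood apart, at 0.456 CPM.

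For H3K27me3 and Tspan8, 0 of 31 FGF genes passed in edgeR, against 0.335% of 22099 genes. Spry2 and Fgf22 had too few H3K27me3 reads to be tested. At an unadjusted p under 0.05 stood 6 of 31, against 12.9% of all genes (5.27% higher, 7.6% lower); DESeq2 called 1 and limma-voom 0. The 6 were Fgf13, Fgf6, Fgf5, Fgf3 and Fgf11 with lower and Fgfr4 with higher values in Tspan8hi cells. In 2 members, Fgf13 and Fgf11, all 4 Tspan8hi libraries lay below all 4 Tspan8- libraries, as in 3.54% of all genes, and in 0 members all 4 lay above, as in 2.68%.

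Fgf13, the X-linked intracellular factor, had the smallest p. It carried 178 and 201 CPM of H3K27me3 for Lgr5+Tspan8hi and 192 and 193 for Lgr5-Tspan8hi, against 226 and 252 CPM for Lgr5+Tspan8- and 218 and 269 for Lgr5-Tspan8- libraries. Every Tspan8hi library was below every Tspan8- library, at 191 ± 9.40 CPM in Tspan8hi and 241 ± 23.2 CPM in Tspan8- cells (SD, n = 4 each). The log2 fold change was -0.34 ± 0.10 with an adjusted p of 0.111 in edgeR. This value crossed the threshold in other fits, at an adjusted p of 0.0191 in DESeq2, 0.0494 with no filter on low counts and 0.00683 with offsets fitted against reads per kb. Those fits called 2.17%, 1.17% and 0.634% of all genes. H3K4me3 at Fgf13 differed by -0.09 between the same groups, an adjusted p of 0.983 in edgeR. Fgf13 overlaps 5 small or predicted genes. The cells came from females, so reads from the active and the inactive X chromosome at Fgf13 and Fgf16 cannot be told apart.

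Fgf6, a ligand known from skeletal muscle, had 31.8 and 40.7 CPM of H3K27me3 for Lgr5+Tspan8hi and 35.8 and 34.6 for Lgr5-Tspan8hi, against 36.9 and 46.1 CPM for Lgr5+Tspan8- and 44.8 and 59.0 for Lgr5-Tspan8- libraries. The groups overlapped, with a log2 fold change of -0.39 ± 0.15 and an adjusted p of 0.253 in edgeR. Fgf5 had 71.5, 88.1, 115 and 87.9 CPM in Tspan8hi, against 115, 99.7, 103 and 118 CPM in Tspan8- libraries, which overlap, and stood at -0.28 ± 0.12 with an adjusted p of 0.297. Fgf3 had 26.4, 28.6, 28.6 and 31.5 CPM in Tspan8hi, against 26.0, 36.1, 34.4 and 59.0 CPM in Tspan8- libraries, a log2 fold change of -0.41 ± 0.17 and an adjusted p of 0.302. Without replicate 1 of Lgr5-Tspan8-, 3 members passed in edgeR: Fgf13 (adjusted p of 0.00193), Fgf3 (0.0255) and Fgf6 (0.0469). In that fit 3 of 32 members tested passed, against 5.26% of all genes.

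Fgf11 carried little H3K27me3, at 4.16, 5.41, 2.64 and 5.72 CPM in Tspan8hi, against 6.35, 6.40, 6.94 and 11.3 CPM in Tspan8- libraries. Every Tspan8hi library was the lower one, with a log2 fold change of -0.72 ± 0.32 and an adjusted p of 0.32 in edgeR. Fgfr4, a receptor best known from liver, went the other way with 14.0, 18.1, 17.7 and 14.1 CPM in Tspan8hi, against 11.9, 8.53, 14.1 and 9.46 CPM in Tspan8- libraries. The first Lgr5-Tspan8- library reached the lowest Tspan8hi values, and the log2 fold change was 0.54 ± 0.22 with an adjusted p of 0.299. The log2 fold change of H3K27me3 was 0.23 at Fgfr1, 0.17 at Fgfr2, -0.16 at Fgf2 and 0.40 at Spry1, with adjusted p of 0.7 or more in edgeR.

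As a group, 16 of the 21 ligands tested had H3K27me3 fold changes below 0 for Tspan8, with a median of -0.19, against 47.3% of all genes below 0 and a median of 0.02. The 5 receptors had a median of 0.17 and the 5 inhibitors of 0.09. One library moved with this pattern: replicate 2 of Lgr5-Tspan8- held the highest value at 11 of the 16 ligands with high H3K27me3 density, and at 31.4% of all 8395 genes of such density. Leaving out a library moved the ligand median between -0.24 (without replicate 1 of Lgr5-Tspan8-) and -0.14 (without that replicate 2). With offsets fitted against reads per kb, which align the libraries over genes of like density, the ligand median was -0.01. Receptors and inhibitors kept positive medians under every setting run.

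Markers of other cell types were set beside this comparison. Summed H3K27me3 over 8 adipocyte markers was 301 to 348 CPM in Tspan8hi, against 400 to 436 CPM in Tspan8- libraries. Most of that sum was Pparg, the adipocyte regulator, which fell in Tspan8hi cells (log2 fold change -0.49, adjusted p of 0.00653 in edgeR), while the 7 adipocyte markers tested had a median of 0.09. The 12 basal markers had a median H3K27me3 fold change of 0.31 with 9 above 0, and their sum was 290 to 471 CPM in Tspan8hi, against 232 to 396 CPM in Tspan8- libraries. For H3K4me3, 9 of 12 fibroblast markers had fold changes below 0 with a median of -0.25, and their sum was 318 to 411 CPM in Tspan8hi, against 410 to 477 CPM in Tspan8- libraries. Of all marker genes tested for Tspan8, Pparg was the only one to pass other than Tspan8 itself. The part of these cell types in the values of the FGF genes was not tested.

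**Figure D3:**
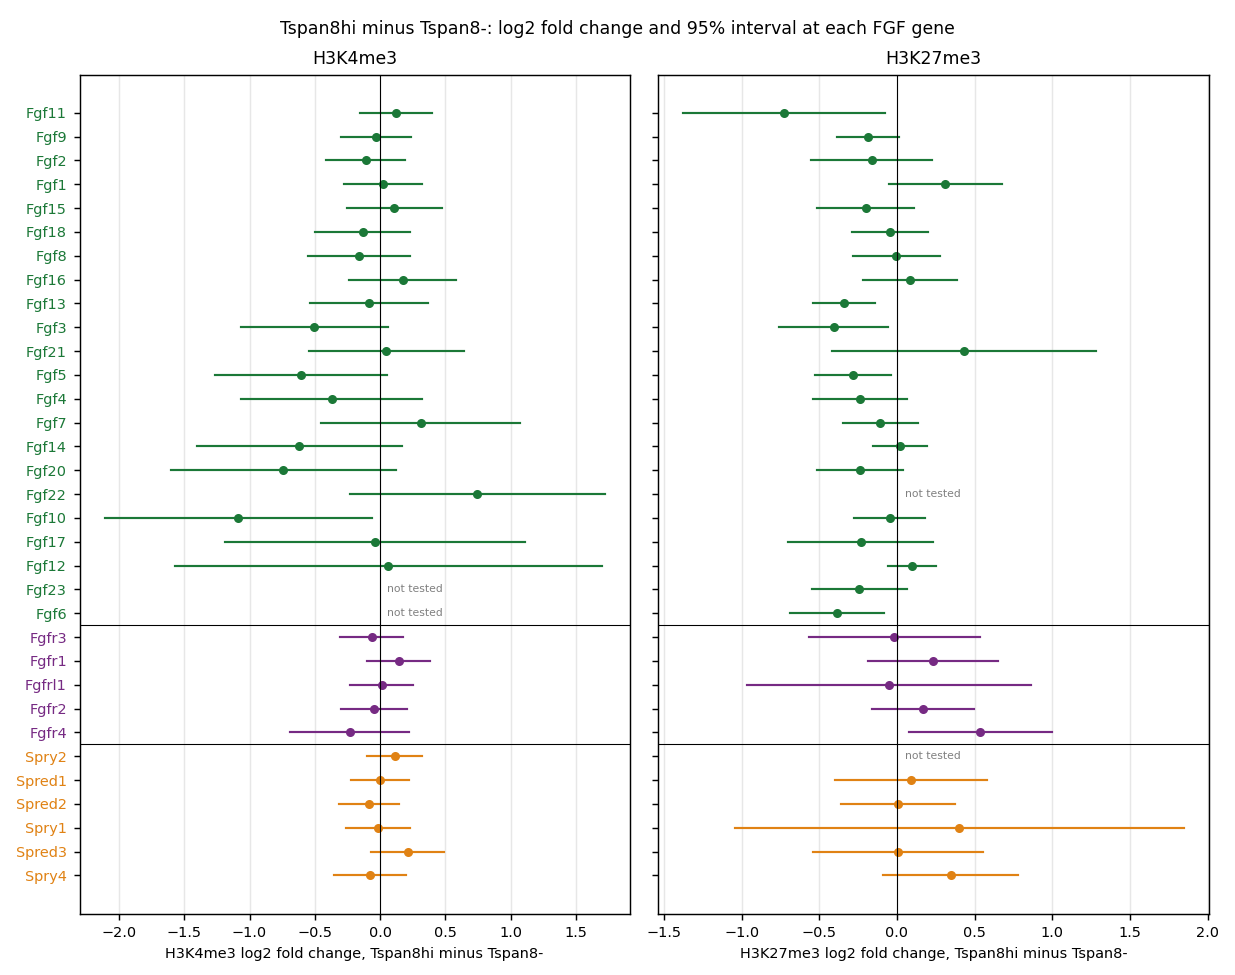
Log2 fold change of Tspan8hi over Tspan8- libraries (points) with 95% intervals (lines) at each FGF gene for H3K4me3 (left) and H3K27me3 (right), 4 libraries a side; names are coloured by role. For H3K27me3, 16 of 21 ligands lie left of 0, and Fgf13 at -0.34 has the smallest p.

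The second comparison took the 4 Lgr5+ against the 4 Lgr5- libraries over both Tspan8 states. For H3K4me3, 0 of 31 FGF genes passed in edgeR, against 0.0421% of all genes; 1 of 31 had an unadjusted p under 0.05, against 4.98% (2.55% higher, 2.43% lower), and DESeq2 and limma-voom called 0. That gene was Fgf14, with 6.00 and 5.32 CPM for Lgr5+Tspan8hi and 8.75 and 8.90 for Lgr5+Tspan8-, against 12.3 and 11 CPM for Lgr5-Tspan8hi and 13.4 and 21.3 for Lgr5-Tspan8- libraries. All 4 Lgr5+ libraries lay below all 4 Lgr5- libraries, as in 1.26% of all genes; the reverse held for 0 members and 1.58% of all genes. Fold changes were below 0 at 21 of 31 and above 0 at 10 of 31 members, against 49.2% and 50.8% of all genes. The means were 7.24 ± 1.85 CPM over Lgr5+ and 14.5 ± 4.64 CPM over Lgr5- cells (SD, n = 4 each), and the log2 fold change was -1.02 ± 0.40 with an adjusted p of 0.926. Fgf13 and Fgf9 followed at -0.40 and -0.21, with adjusted p of 0.971 and 0.979. Among the marker genes, Dcn, a fibroblast proteoglycan, fell in Lgr5+ cells (log2 fold change -1.52, adjusted p of 0.000145), and 8 of 12 fibroblast and 5 of 5 adipocyte markers tested had H3K4me3 fold changes below 0. Their part in the FGF values was not tested. The log2 fold change was -0.17 at Fgfr1, 0.17 at Fgfr2, 0.13 at Fgf2, -0.12 at Spry1 and -0.08 at Spry2, and the intervals of all 6 inhibitors lay between -0.38 and 0.21.

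For H3K27me3 and Lgr5, 0 of 31 passed in edgeR, against 0.0407% of all genes; 3 of 31 had an unadjusted p under 0.05, against 7.19% (3.08% higher, 4.11% lower), and DESeq2 and limma-voom called 0. Fgf15, a hormone that in mice runs from gut to liver, had the smallest p. Its H3K27me3 was 24.9 and 25.4 CPM for Lgr5+Tspan8hi and 26.0 and 33.2 for Lgr5+Tspan8-, against 35.0 and 33.7 CPM for Lgr5-Tspan8hi and 35.4 and 41.4 for Lgr5-Tspan8- libraries. At 2 members, Fgf15 and Fgfrl1, all 4 Lgr5+ libraries lay below all 4 Lgr5- libraries, as in 1.51% of all genes. The means at Fgf15 were 27.4 ± 3.88 CPM over Lgr5+ and 36.4 ± 3.45 CPM over Lgr5- cells (SD, n = 4 each), a log2 fold change of -0.41 ± 0.15 with an adjusted p of 0.542.

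Its cluster neighbour Fgf3 stood at -0.37 ± 0.17 with an adjusted p of 0.683. It moved to -0.55 without replicate 1 of Lgr5-Tspan8-, to -0.13 without replicate 2 of that subpopulation and to -0.18 with offsets against reads per kb. Fgfrl1 stood at -0.95 ± 0.45 with an adjusted p of 0.685, on means of 2.20 ± 0.50 CPM over Lgr5+ and 4.41 ± 1.56 CPM over Lgr5- libraries. In 1 member, Fgf12, all 4 Lgr5+ libraries lay above all 4 Lgr5- libraries, by 0.12 on the log2 scale, as in 2.1% of all genes. Its H3K27me3 averaged 940 ± 44.3 CPM over Lgr5+ and 867 ± 41.5 CPM over Lgr5- libraries. Of the 21 ligands, 16 had fold changes below 0 for Lgr5 with a median of -0.14, and 5 above 0, against 51% below and 49% above among all genes, whose median was -0.01. Leaving out a library moved the ligand median between -0.25 (without replicate 1 of Lgr5-Tspan8-) and -0.05 (without replicate 2 of Lgr5-Tspan8-), and it was -0.05 with offsets against reads per kb. Spry1, a feedback inhibitor, had the largest positive value at 1.06 ± 0.69, on 4 to 15 reads in Lgr5+ and 2 to 6 reads in Lgr5- libraries, with an adjusted p of 0.812. The log2 fold change for Lgr5 was 0.29 at Fgfr1, -0.28 at Fgfr2 and -0.04 at Fgf2.

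**Figure D4:**
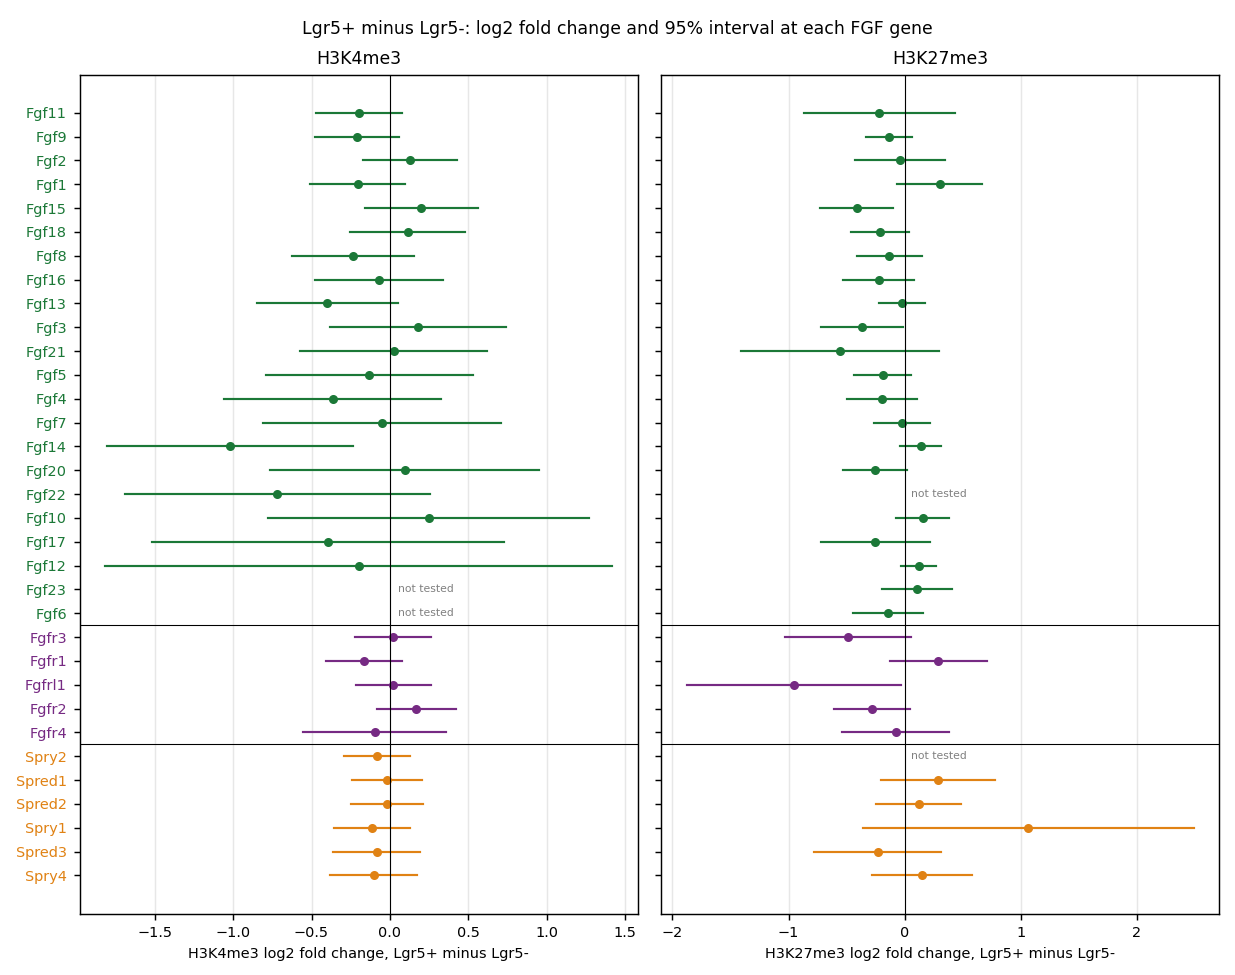
Log2 fold change of Lgr5+ over Lgr5- libraries (points) with 95% intervals (lines) at each FGF gene for H3K4me3 (left) and H3K27me3 (right), 4 libraries a side; names are coloured by role. Fgf14 at -1.02 in H3K4me3 and Fgf15 at -0.41 in H3K27me3 have the smallest p of each mark.

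The interaction, the Tspan8 difference in Lgr5+ minus that in Lgr5- cells, gave 0 of 31 members for either mark in edgeR, against 0% of all genes for H3K4me3 and 0.00905% for H3K27me3. Unadjusted p lay under 0.05 at 1 member for H3K4me3 (4.2% of all genes, 2.05% higher and 2.15% lower) and 2 for H3K27me3 (5.5%, 3.67% higher and 1.82% lower), and DESeq2 and limma-voom called 0. The interaction was above 0 at 20 of 31 members for H3K4me3 and at 21 of 31 for H3K27me3, against 50.1% of all genes for each mark, with 49.9% below 0. The H3K4me3 member was Fgf15, with 55.2 and 70.7 CPM for Lgr5+Tspan8hi against 39.4 and 41.8 for Lgr5+Tspan8- libraries, and 31.5 and 44.1 CPM for Lgr5-Tspan8hi against 60.1 and 43.9 for Lgr5-Tspan8- libraries. Tspan8hi was thus above Tspan8- among Lgr5+ libraries, while the Lgr5- libraries overlapped narrowly. The interaction was 1.07 ± 0.36 on the log2 scale with an adjusted p of 1.0. For H3K27me3 the 2 members were Fgf21, at -2.23 ± 0.82 with an adjusted p of 0.759, and Spred1, at 0.98 ± 0.47 with 0.903. Fgf21 had 2.49 and 1.87 CPM for Lgr5+Tspan8hi against 3.77 and 3.30 for Lgr5+Tspan8-, and 7.91 and 6.34 CPM for Lgr5-Tspan8hi against 3.47 and 1.5 for Lgr5-Tspan8- libraries. Of the basal markers tested, 10 of 11 had an H3K4me3 interaction below 0 (median -0.41). For H3K27me3, 10 of 12 basal markers lay above 0 (median 0.97), as did 9 of 12 luminal (0.29) and 9 of 12 fibroblast markers (0.39). No marker gene passed for the interaction in edgeR. The part of these cell types in the FGF values was not tested.

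A test for any difference among the 4 subpopulations likewise gave 0 of 31 members for either mark in edgeR, against 0.0894% of all genes for H3K4me3 and 0.529% for H3K27me3. Among the cell type markers, 1 basal and 1 adipocyte gene passed for H3K27me3 (adjusted p of 0.0327 and 0.0175 in edgeR). For H3K4me3, 1 fibroblast gene passed (3.47e-06). Their part in the FGF values was not tested. Unadjusted p lay under 0.05 at 2 members for H3K4me3 (5.27% of all genes), Fgf15 and Fgf14, and at 6 for H3K27me3 (11.1%), led by Fgf3 and Fgf13; DESeq2 and limma-voom called 0. Without replicate 1 of Lgr5-Tspan8-, Fgf13 (adjusted p of 0.0128) and Fgf3 (0.0102) passed in edgeR for H3K27me3, against 4.15% of all genes in that fit. Fgf13 also passed with offsets against reads per kb (0.0259, with 0.973% of all genes). Fgf20 passed for H3K4me3 without replicate 2 of Lgr5-Tspan8hi (0.0419, with 0.467% of all genes).

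**Figure D5:**
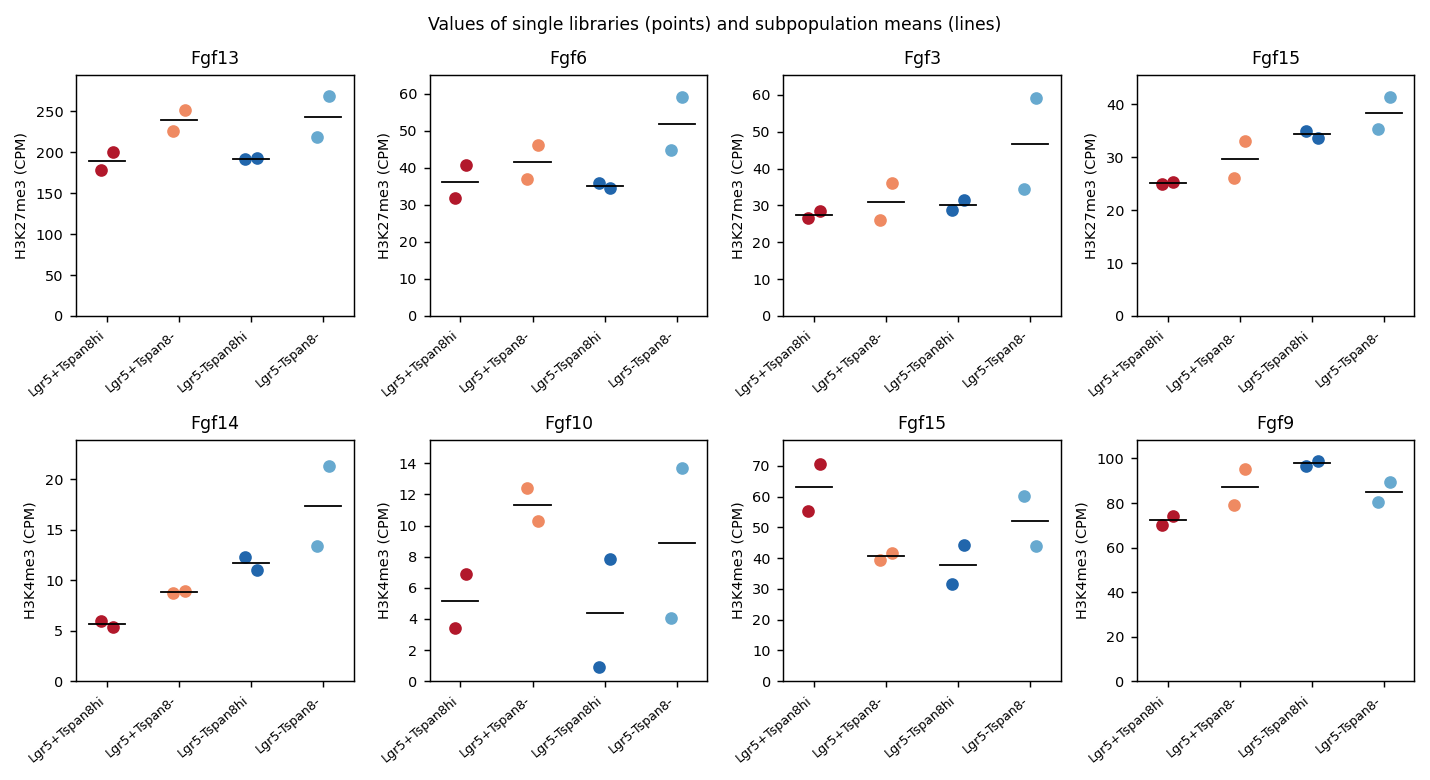
CPM of single libraries (points) and subpopulation means (lines) at 8 tested cases, H3K27me3 above and H3K4me3 below, 2 libraries per subpopulation. Each was among the 3 smallest p of a mark and effect, but Fgf9 had no unadjusted p under 0.05 for H3K4me3 in edgeR. H3K27me3 at Fgf13 is lower in both Tspan8hi subpopulations, at Fgf15 in both Lgr5+ subpopulations, and H3K4me3 at Fgf14 in both Lgr5+ subpopulations, while Fgf10 overlaps.

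Of the 42 other pathway genes, 41 were tested for H3K4me3 and 40 for H3K27me3, and 0 passed in either direction for Tspan8 or for Lgr5 in edgeR. Unadjusted p lay under 0.05 at 3 of 41 for Tspan8 and 1 of 41 for Lgr5 in H3K4me3, against 5.9% and 4.98% of all genes. For H3K27me3 it did so at 10 of 40 for Tspan8 and 2 of 40 for Lgr5, against 12.9% and 7.19% of all genes. The smallest adjusted p was that of H3K27me3 at Dusp4, a phosphatase of ERK that the pathway induces. Dusp4 had 26.8, 15.5, 17.3 and 15.6 CPM in Tspan8hi, against 8.54, 13.4, 10.6 and 7.51 CPM in Tspan8- libraries, so the groups did not overlap, as in 2.68% of all genes. The log2 fold change was 0.91 ± 0.23 with an adjusted p of 0.0786. All 7 targets and feedback genes tested had H3K27me3 fold changes above 0 for Tspan8, with a median of 0.36, against 52.7% of all genes above 0. How the median of these genes moved under other settings, or with a library left out, was not examined. Of the basal markers, 9 of 12 also had fold changes above 0 in this comparison (median 0.31, none past the threshold), and their part in it was not tested. Flrt1 and Hs6st2 came next at -0.79 and -0.26, with adjusted p of 0.155 and 0.164.

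For H3K4me3 and Tspan8, Flrt3, a membrane protein that binds FGF receptors, stood at -0.51, the adaptor Grb2 at 0.34 and the docking protein Frs2 at 0.25, with adjusted p of 0.54, 0.742 and 0.838. For H3K4me3 and Lgr5, Flrt3 stood at -0.38, Grb2 at 0.26 and Etv4, an ETS factor induced by FGF, at -0.24, with adjusted p of 0.961, 0.971 and 0.971. For H3K27me3 and Lgr5, Grb2 stood at -0.50, Flrt1 at 0.54 and Fgfbp3, a carrier of FGF ligands, at -1.69, with adjusted p of 0.57, 0.685 and 0.695. All of these values came from the fits across all genes.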

How the data were processed

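Chromatin immunoprecipitation sequencing of H3K4me3 and H3K27me3 was analysed in 16 libraries, 2 per mark and subpopulation. Values were not set against the 8 input samples, which were not analysed here. The authors deposited raw read counts for 27080 Entrez genes per library, without normalization, made per the submitters' processing notes with featureCounts on the mm10 build. Not given in the sources used here are the aligner, the annotation and the region counted per gene. Symbols, coordinates and promoters came from RefSeq tables of GRCm38.p6; 1891 identifiers had no symbol.

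The 8 libraries of a mark entered 1 fit per mark, made in R 4.3.3 by edgeR 4.0.16 (filterByExpr, TMM, a mean per subpopulation, robust quasi-likelihood F test, Benjamini-Hochberg over all genes of a mark and comparison). CPM values use TMM factors. The biological coefficient of variation was 16.0% for H3K4me3 and 16.8% for H3K27me3. Counting error dominates the precision of genes with few reads. Code was tested on simulated data. Same-numbered replicates deviated together by correlations of -0.0322 to 0.14 (H3K4me3) and -0.0102 to 0.117 (H3K27me3). The main fit did not treat the numbers as pairs. With a block for the number, 678 genes passed for H3K27me3 and Tspan8, against 74 without it. Within each subpopulation replicate counts differed by more than sampling noise (chi-square over its degrees of freedom 2.9 to 5.43).

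The members, pathway list and marker lists were chosen with earlier results of these data known. Genes named are members past the threshold, the 3 smallest p per mark for the Tspan8 and Lgr5 effects, and always Fgfr1, Fgfr2, Fgf2, Spry1 and Spry2; for the pathway list, the 3 smallest p. Genes named for their level, for libraries that did not overlap or for the interaction were chosen after their values were seen. Alternatives were DESeq2 1.42.0, limma-voom (limma 3.58.1), RLE size factors, library totals, loess offsets, a block for the replicate number, no filter, a filter at a mean of 5 CPM and each library left out; added after seeing the data were offsets against reads per kb, other cutoffs for high, and H3K27me3 not divided by length.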

Additional observations from a re-analysis of the deposited data

Results flagged for a closer look

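In 88 groups of 4 libraries, a single library lay far from the other 3 at 4 places; chance gives about 1 in 20 groups. H3K4me3 at Fgfr1 was 167 CPM in replicate 1 of Lgr5-Tspan8hi, against 115 to 123 CPM in the other Tspan8hi libraries. H3K4me3 at Fgfr1 was also 126 CPM in replicate 2 of Lgr5-Tspan8-, against 114 to 116 CPM in the other Tspan8- libraries. H3K27me3 at Fgf15 was 33.2 CPM in replicate 2 of Lgr5+Tspan8-, against 24.9 to 26.0 CPM in the other Lgr5+ libraries. H3K27me3 at Spry1 was 1.99 CPM in replicate 1 of Lgr5+Tspan8-, against 0.694 to 0.901 CPM in the other Tspan8- libraries, on 10 reads against 3 to 6.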

How the results depend on the processing

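For H3K27me3 and Tspan8, Fgf13 passed with DESeq2, with no filter, with offsets against reads per kb and with the replicate number as a block. Under the block its log2 fold change was -0.34 and its adjusted p 0.0153 in edgeR. In the same order, those fits called 2.17%, 1.17%, 0.634% and 3.07% of all genes. The count of FGF genes that passed was 1 in each of them, against 0 in the main edgeR fit. Leaving out a library gave 0 to 3. For any difference in H3K27me3 the count was 1 with offsets against reads per kb and 0 to 2 with a library left out. For H3K4me3, both the Tspan8 effect and any difference gave 0 to 1 with a library left out, the 1 being Fgf20 without replicate 2 of Lgr5-Tspan8hi (log2 fold change -2.61), which leaves the library with 0.456 CPM there. Counts for Lgr5 and for the interaction stayed at 0 under every setting run.

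Near-zero values changed sign when a library was left out: for H3K4me3 and Tspan8, Fgfr2 ran from -0.13 to 0.022, Fgf2 from -0.29 to 0.032 and Spry1 from -0.13 to 0.089; for H3K4me3 and Lgr5, Fgf2 ran from -0.012 to 0.31, Spry1 from -0.22 to 0.00052 and Spry2 from -0.19 to 0.0023; for H3K27me3 and Lgr5, Fgf2 ran from -0.24 to 0.11. No other setting reversed a named gene.

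Over all genes, H3K27me3 calls for Tspan8 numbered 74 in edgeR, 480 with DESeq2, 294 with limma-voom, 312 with no filter, 136 at 5 CPM, 678 under the block and 140 with offsets against reads per kb; for Lgr5 they numbered 9 in edgeR, 69 with DESeq2, 47 with limma-voom, 15 with loess offsets, 42 with no filter, 80 under the block and 70 with offsets against reads per kb. For any difference in H3K27me3 they numbered 117 in edgeR, 407 with DESeq2, 311 with limma-voom, 341 with no filter, 670 under the block and 215 with offsets against reads per kb, and for the interaction 2 in edgeR, 6 with DESeq2, 15 with no filter, 13 under the block and 7 with offsets against reads per kb. For H3K4me3, limma-voom called 31 for any difference, against 17 in edgeR, and 2 for the interaction, against 0; for Lgr5 DESeq2 called 5, against 8. Leaving out a library moved the all-gene counts for H3K27me3 between 13 and 1240 (Tspan8), 3 and 165 (Lgr5), 0 and 109 (interaction) and 38 and 979 (any difference), and for H3K4me3 between 1 and 105, 1 and 14, 0 and 15, and 3 and 97; these fits assume that the lone library left in a subpopulation varies like the others. The number of FGF genes high in H3K4me3 was 14, and it ran from 14 to 20 under the other settings tried. For H3K27me3 the number was 16, and it ran from 13 to 21. Moving the cutoff also changes the share of all genes called high, so these ranges do not measure stability. The number high in both was 1 (Fgf9) at the top tercile, 9 above the median (adding Fgf8, Fgf11, Fgf15, Fgf16, Fgf18, Fgfr4, Spred3 and Spry4), and 5 with H3K27me3 not divided by length (adding Fgf1, Fgf2, Fgfr2 and Spred2). The cause of these shifts was not tested. With 2 libraries per subpopulation, genes at a few CPM have wide intervals, and input was not used.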
